A study of Mus musculus with 16 samples.

Results

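Fos, Fosb, Junb, Egr1, Egr3, Arc, Nr4a1, Npas4, Dusp1 and Ier2 are immediate early genes, which cells transcribe within minutes of a stimulus. These 10 genes were taken by name from the 52636 genes counted, and all 10 passed the filter on low counts that left 21371 genes. RNA was sequenced from lumbar dorsal root ganglia (DRGs) of 16 male C57Bl6/J mice, 3 to 4 months old, with 1 mouse per library and 4 mice per group. Sham-Saline mice had sham surgery and saline, SNI-Saline mice had tibial spared nerve injury (SNI) and saline, Sham-DMI mice had sham surgery and desipramine (DMI), and SNI-DMI mice had the injury and DMI. In SNI the common peroneal and sural branches of the left sciatic nerve are tied and cut. DMI, a tricyclic antidepressant that blocks noradrenaline reuptake, was given by intraperitoneal injection of 15 mg/kg, with 2 injections a day over 3 weeks, beginning 4 weeks after surgery by the labels and 4 months by the methods. All mice were injected on the same schedule and no group was left without surgery. The time from the last injection to harvest, the time of day and the side of the DRGs were not given in the sources used here, and transcripts of these genes are known to rise and decay within hours.

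In neurons, depolarization and calcium entry activate kinases that phosphorylate transcription factors already bound at these promoters, such as CREB and the partners of SRF, so that transcription starts without new protein synthesis. Fos, Fosb and Junb are subunits of the dimeric factor AP-1, Egr1 and Egr3 are zinc-finger factors, Nr4a1 is an orphan nuclear receptor, and Npas4 is a factor induced almost only by calcium in neurons. Arc acts at synapses, Dusp1 dephosphorylates and shuts off MAP kinases, and Ier2 is a short nuclear protein. In the nervous system the family is widely used as a readout of recent activity or of injury, although glia, vessel cells and immune cells also transcribe most of it. Neuronal activity was not measured in these DRGs.

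Reads counted on genes ran from 41194238 to 73920332 per library. The labels call the tissue spinal cord and the cell type DRG. All 10 sensory neuron markers were high (summed level 10300 to 13100 CPM, the counts scaled to a common library total), whereas the motor neuron marker Chat was at or under 0.0919 CPM and the oligodendrocyte factor Olig2 at or under 0.29 CPM. Slc17a6, which sensory neurons also express, gave 220 to 288 CPM of the 245 to 326 CPM summed over 12 spinal cord markers. Glial markers of that list were present, with Aqp4 at 7.53 to 13.4, Slc1a2 at 6.17 to 14.2, Sox2 at 8.58 to 11.8 and Gfap at 1.6 to 6.49 CPM. The rest of the list stayed at or under 1.34 CPM. Which cells gave the glial transcripts was not tested. The injury label was borne out by Atf3, an injury-induced factor, at 10.5 ± 2.16 CPM in Sham-Saline and 52.4 ± 1.6 CPM in SNI-Saline (SD over 4 mice, as everywhere below). Atf3 was also higher in Sham-DMI than in Sham-Saline (16.9 ± 5.11 CPM, log2 fold change 0.69 ± 0.22 (SE), adjusted p = 0.0391). SNI-DMI replicate 2 stood apart in skeletal muscle markers, which summed to 268 CPM there and to at most 75.9 CPM elsewhere. The numbers in the sample names run 17 to 24 in the DMI groups and 33 to 40 in the saline groups, so any effect of that order cannot be told apart from DMI. In bulk RNA fewer cells of a type and less RNA per cell cannot be told apart either.

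The stretches before the start sites of 4 of these genes are shown because they carry the letters through which CREB is known to act on the family, in different number and spacing. RefSeq promoter windows (GRCm38.p6) were used for 6 of the 10 genes: Fos, Fosb, Junb, Nr4a1, Npas4 and Dusp1. Each sequence below reads 5′ to 3′ on the gene's strand and covers up to 250 bases before the start. Capitals mark TGACG or CGTCA, the same core read on either strand. The windows are chr12:85473640-85473889 (plus strand) for Fos, chr15:101266596-101266845 (plus strand) for Nr4a1, chr8:84978749-84978998 (minus strand) for Junb and chr17:26508520-26508722 (minus strand) for Dusp1. The 47 bases next to the Dusp1 start lie in an annotated exon and are left out. The windows of Nr4a1 and Dusp1 lie inside the annotated spans of these genes, which include longer transcripts, and those of Fos and Junb lie outside.
Fos: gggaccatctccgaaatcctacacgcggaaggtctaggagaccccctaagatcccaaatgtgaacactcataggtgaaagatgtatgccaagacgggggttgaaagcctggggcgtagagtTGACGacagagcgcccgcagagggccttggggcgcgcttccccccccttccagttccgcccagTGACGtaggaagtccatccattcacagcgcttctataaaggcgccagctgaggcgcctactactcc
Nr4a1: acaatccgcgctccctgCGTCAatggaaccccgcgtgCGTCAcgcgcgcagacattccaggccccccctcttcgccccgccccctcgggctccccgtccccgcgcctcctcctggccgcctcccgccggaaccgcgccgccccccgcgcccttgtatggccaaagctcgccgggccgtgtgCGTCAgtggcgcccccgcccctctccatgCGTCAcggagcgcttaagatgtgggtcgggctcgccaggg
Junb: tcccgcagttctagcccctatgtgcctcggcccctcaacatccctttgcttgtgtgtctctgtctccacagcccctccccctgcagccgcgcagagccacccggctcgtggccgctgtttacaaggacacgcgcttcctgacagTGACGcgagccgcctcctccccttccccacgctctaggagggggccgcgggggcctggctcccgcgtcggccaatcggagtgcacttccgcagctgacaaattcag
Dusp1: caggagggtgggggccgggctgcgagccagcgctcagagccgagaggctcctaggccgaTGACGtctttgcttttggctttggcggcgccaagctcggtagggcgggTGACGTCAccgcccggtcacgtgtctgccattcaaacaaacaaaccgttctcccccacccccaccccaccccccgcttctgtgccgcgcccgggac

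All 6 windows held the core, against 17.8% of the 32851 promoter windows of that length. Nr4a1 had 4 copies, beginning 233, 213, 69 and 40 bases before the start. Dusp1 had 3, of which 2 overlap in the full palindrome TGACGTCA beginning 143 bases before the start. That palindrome was found in 1.55% of all windows and in no other of the 6. Fos had copies 129 and 66 bases before its start, Npas4 179 and 169 bases before, Junb 1 copy 106 bases before and Fosb 1 copy 60 bases before. The CArG box, the letters that SRF recognises, was not in these windows in its exact form and was in 1.47% of all windows. Bases farther than 250 before the start and inexact forms were not searched, nor were Egr1, Egr3, Arc and Ier2. Such boxes may therefore lie elsewhere in the family. Such matches describe letters, and no binding was measured here.

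All members were detected in all 16 libraries, at very different levels. Per kilobase of exon, Junb was highest at 9.99 ± 1.51 CPM per kb over the 16 libraries, followed by Nr4a1 (9.23 ± 1.12), Dusp1 (7.76 ± 0.943), Ier2 (3.85 ± 0.358), Egr1 (2.65 ± 0.527), Arc (1.71 ± 0.299), Fos (1.62 ± 0.328), Egr3 (1.12 ± 0.381), Npas4 (0.18 ± 0.0598) and Fosb (0.154 ± 0.034). The order was uneven in its firmness. Dusp1 lay above Ier2 and Egr3 above Npas4 in 16 of 16 libraries, while Arc lay above Fos in only 9 of 16, and Junb above Nr4a1 and Npas4 above Fosb in 12 of 16. Npas4, the most neuron-restricted member, rested on 17 to 74 read pairs per library and Fosb on 34 to 79, compared with 1287 to 2586 for Nr4a1 and 922 to 1811 for Junb. A level of 3 counts corresponds to 0.0406 to 0.0728 CPM, below the lowest value of any member.

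Most members varied more between mice of a group than the median gene with at least 1 CPM. The within-group SD of log2 CPM was 0.516 for Npas4, 0.479 for Egr3, 0.381 for Fosb, 0.258 for Fos, 0.252 for Egr1, 0.231 for Junb, 0.215 for Arc, 0.17 for Dusp1, 0.16 for Nr4a1 and 0.114 for Ier2, where the median of 15750 genes with at least 1 CPM was 0.12. Only Ier2 was below that median. Npas4 and Fosb averaged 0.745 and 0.964 CPM and so lay under the 1 CPM limit of the genes they were set against. Genes were not matched for level, and the part of low counts in this comparison was not tested. Counting error was a minor part of this for the abundant members (2.3% for Nr4a1 in Sham-Saline, where the mice varied by 14.6%). For Npas4 in Sham-Saline it was 15.1% of the mean against a spread of 46.1%. In Sham-DMI and SNI-DMI the spread of Npas4 (10.1% and 11.1%) was below its counting error (15.4% and 12.8%).

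**Figure D1:**
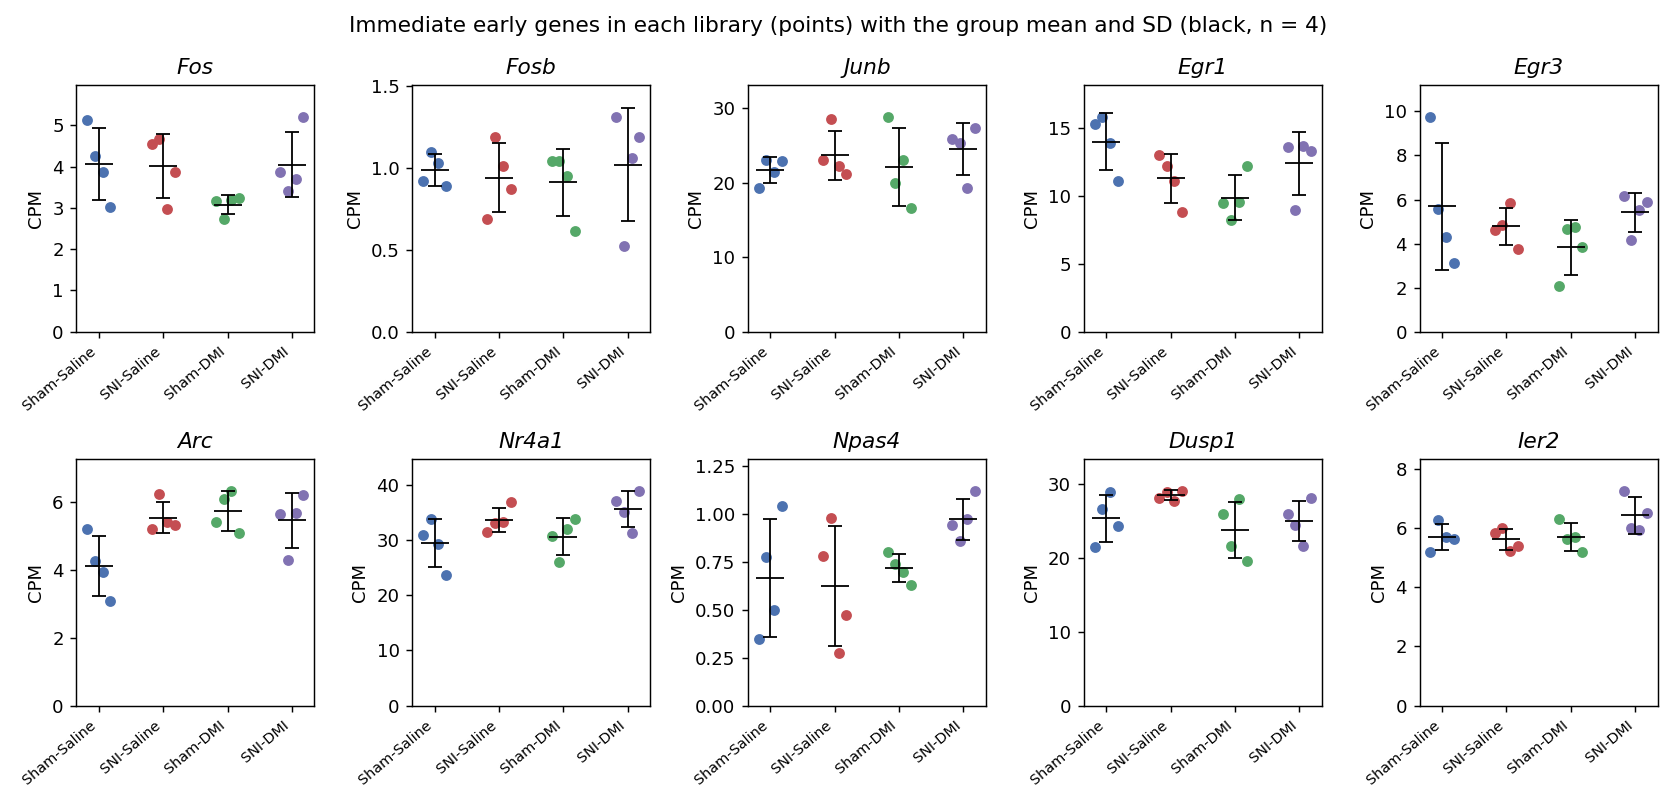
Level of each immediate early gene (vertical axis, CPM from 0) in the 4 libraries of each group (points) with the group mean and SD (black). Egr1 was at 9.88 ± 1.67 CPM in Sham-DMI and 14.0 ± 2.08 CPM in Sham-Saline, and Arc was lowest in Sham-Saline.

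Fos (ENSMUSG00000021250, chromosome 12, 85473890 to 85477273, plus strand) encodes the inducible AP-1 partner most often used to map activity. Its levels in replicates 1 to 4 were 5.13, 4.25, 3.88 and 3.03 CPM in Sham-Saline, 4.55, 4.66, 2.97 and 3.87 CPM in SNI-Saline, 3.16, 2.73, 3.2 and 3.23 CPM in Sham-DMI and 3.87, 3.41, 3.71 and 5.2 CPM in SNI-DMI. The Sham-DMI mice lay close together, at 3.08 ± 0.234 CPM, and the means of the other groups were within 0.1 CPM of each other at 4.07, 4.01 and 4.05 CPM. The spread in Sham-DMI was 7.6% of the mean, where counting error was 7.5%.

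Egr1 (ENSMUSG00000038418, chromosome 18, 34859823 to 34864984, plus strand) showed the same order of group means. Sham-Saline mice were at 15.3, 15.8, 13.9 and 11.1 CPM, SNI-Saline mice at 13.0, 12.2, 11.1 and 8.85 CPM, Sham-DMI mice at 9.51, 8.22, 9.57 and 12.2 CPM and SNI-DMI mice at 13.6, 8.96, 13.7 and 13.3 CPM. In Sham-DMI 3 of 4 mice were below every Sham-Saline mouse, and in SNI-DMI 3 of 4 mice were above every Sham-DMI mouse. Egr3 (ENSMUSG00000033730, chromosome 14, 70077203 to 70082614, plus strand), a relative of Egr1, followed the same group order but ranged from 3.11 to 9.74 CPM within Sham-Saline alone.

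Arc (ENSMUSG00000022602, chromosome 15, 74669083 to 74672570, minus strand) went the other way, with Sham-Saline lowest. Its levels were 5.22, 4.28, 3.94 and 3.08 CPM in Sham-Saline, 5.22, 6.24, 5.41 and 5.32 CPM in SNI-Saline, 5.41, 6.09, 6.34 and 5.09 CPM in Sham-DMI and 5.65, 4.3, 5.69 and 6.22 CPM in SNI-DMI. The highest Sham-Saline mouse and the lowest SNI-Saline mouse met at 5.22 CPM. Npas4 (ENSMUSG00000045903, chromosome 19, 4984355 to 4990316, minus strand) was at 0.348, 0.776, 0.499 and 1.04 CPM in Sham-Saline, 0.779, 0.977, 0.273 and 0.474 CPM in SNI-Saline, 0.803, 0.741, 0.699 and 0.631 CPM in Sham-DMI and 0.941, 0.858, 0.973 and 1.12 CPM in SNI-DMI. Its saline mice were spread over most of the range, and the DMI mice fell into narrow bands, with every SNI-DMI mouse above every Sham-DMI mouse. The spread within these bands was 10.1% of the mean in Sham-DMI and 11.1% in SNI-DMI. Counting error was larger, at 15.4% and 12.8%, so the narrowness of the bands cannot be read as a likeness of the mice.

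The other members moved little between groups. Nr4a1 (ENSMUSG00000023034, chromosome 15, 101254269 to 101274795, plus strand) averaged 29.5 to 35.7 CPM, with SNI-DMI highest and Sham-Saline lowest. Junb (ENSMUSG00000052837, chromosome 8, 84974484 to 84978718, minus strand) averaged 21.7 to 24.5 CPM in the same order, and 173 bases (7.5%) of its exons overlap Prdx2 on the opposite strand. Dusp1 (ENSMUSG00000024190, chromosome 17, 26505590 to 26562128, minus strand) was at 28.5 ± 0.681 CPM in SNI-Saline, the tightest group of any member relative to its mean, and at 23.8 to 25.4 CPM elsewhere. Its spread in SNI-Saline was 2.4% of the mean, and counting error was also 2.4%, so this tightness cannot be read as a likeness of the mice. For Dusp1, 11 bases of the exons overlap Ergic1 on the opposite strand. Whether the counter used strand was not given in the sources used here, so reads in these overlaps may be shared or lost. Ier2 (ENSMUSG00000053560, chromosome 8, 84661331 to 84662852, minus strand) averaged 5.61 to 6.42 CPM, and Fosb (ENSMUSG00000003545, chromosome 7, 19302696 to 19310051, minus strand) 0.912 to 1.02 CPM.

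The first comparison asked whether the genes differed weeks after nerve injury without the drug (SNI-Saline versus Sham-Saline). Arc rose by 1.34-fold, from 4.13 ± 0.884 to 5.55 ± 0.468 CPM (log2 fold change 0.43 ± 0.145 (SE), 95% interval 0.12 to 0.73, adjusted p = 0.0841 by edgeR's quasi-likelihood test with Benjamini-Hochberg adjustment over all genes), and no other member passed the adjusted p threshold of 0.1. Thus 1 of 10 members was called, where 12.0% of all genes were. By the study's rule for DEGs (a log2 fold change of 0.32 or more in either direction with a nominal p under 0.05) it was also 1 of 10, against 7.15% of all genes, and the groups did not overlap for 1 of 10, against 15.4%. Egr1 was at 14.0 ± 2.08 and 11.3 ± 1.79 CPM (log2 fold change -0.32, interval -0.64 to 0.01, adjusted p = 0.227), Nr4a1 at 29.5 ± 4.31 and 33.7 ± 2.24 CPM (0.20, interval -0.01 to 0.41) and Dusp1 at 25.4 ± 3.17 and 28.5 ± 0.681 CPM (0.17, interval -0.06 to 0.39). Fos differed by -0.02, with an interval of -0.38 to 0.34. The median log2 fold change of the members was -0.02, with 4 higher and 6 lower, and that of all genes was -0.001.

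The call for Arc was not firm. It was lost when any of 7 of the 8 libraries was left out (adjusted p 0.1 to 0.221) and was kept only without Sham-Saline replicate 1 (0.57, adjusted p = 0.0559), and it was lost with GC content and length trends removed (adjusted p = 0.232) and with the replicate block (adjusted p = 0.107). Over these and the other 3 alternatives the log2 fold change ran from 0.36 to 0.44. Macrophage markers moved in the same comparison, with 7 of 7 higher and 4 of 7 called, where 12.0% of all genes were called. They summed to 84.3 to 99.5 CPM in Sham-Saline and 110 to 187 CPM in SNI-Saline. The share of reads in no annotated feature was 8.67% to 9.44% in Sham-Saline and 7.73% to 9.14% in SNI-Saline, and that of ambiguous reads 3.05% to 3.18% and 3.25% to 3.36%, without overlap. Their part in the result was not tested.

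DMI given to injured mice (SNI-DMI versus SNI-Saline) gave no call among the 10 members, by adjusted p (2.93% of all genes), by the rule for DEGs (5.73% of all genes) or by groups without overlap (13.3% of all genes). In edgeR 0 of 10 had an unadjusted p under 0.05. DESeq2 also called 0 by adjusted p and had 1 unadjusted p under 0.05 (Ier2), with no adjusted p for Npas4. Of the members 8 were higher and 2 lower. Npas4 was the most different, at 0.626 ± 0.313 CPM in SNI-Saline and 0.972 ± 0.107 CPM in SNI-DMI (log2 fold change 0.64 ± 0.328 (SE), interval -0.05 to 1.33, adjusted p = 0.304). Ier2 was at 5.61 ± 0.364 and 6.42 ± 0.61 CPM (0.20, interval -0.01 to 0.40) and Dusp1 at 28.5 ± 0.681 and 25.0 ± 2.75 CPM (-0.18, interval -0.41 to 0.04). For Fos, Junb and Arc the intervals were -0.34 to 0.37, -0.25 to 0.34 and -0.32 to 0.28, so that changes beyond these bounds were outside the 95% intervals while smaller ones could not be seen with 4 mice per group.

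In mice without nerve injury DMI was accompanied by lower Egr1 and higher Arc (Sham-DMI versus Sham-Saline). Egr1 fell from 14.0 ± 2.08 to 9.88 ± 1.67 CPM, a ratio of 0.704 (log2 fold change -0.51 ± 0.154 (SE), adjusted p = 0.0323). Arc rose from 4.13 ± 0.884 to 5.74 ± 0.582 CPM, a ratio of 1.39 (0.47 ± 0.145 (SE), adjusted p = 0.0324). Fos passed the rule for DEGs but not the adjusted p threshold, at 4.07 ± 0.869 and 3.08 ± 0.234 CPM (-0.40 ± 0.172 (SE), adjusted p = 0.12). Adjusted p thus called 2 of 10 members, where 23.4% of all genes were called, the rule for DEGs 3 of 10, against 11.5%, and no member had groups without overlap, against 17.1%. Egr3 was at 5.69 ± 2.88 and 3.84 ± 1.25 CPM (-0.57, interval -1.17 to 0.04, adjusted p = 0.19), while Junb, Nr4a1, Dusp1 and Ier2 had log2 fold changes between -0.10 and 0.06. Among the members 5 were higher and 5 lower.

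Egr1 kept its call in all 5 alternatives and with each of the 8 libraries left out (log2 fold change -0.61 to -0.41, adjusted p 0.0223 to 0.0912 without 1 library). Arc kept its call in the 5 alternatives and in 7 of 8 fits without 1 library, and lost it without Sham-Saline replicate 4, its lowest mouse (0.36, adjusted p = 0.104). Fos passed the adjusted threshold in DESeq2 (0.0911), with GC content and length trends removed (0.0921) and without Sham-Saline replicate 4 (0.0577). This comparison shares its Sham-Saline libraries with that of the injury, and the 2 increases of Arc rest on the same low control mice. Other measures moved with it, in a comparison where 23.4% of all genes were called. The share of reads in no annotated feature was 8.67% to 9.44% in Sham-Saline and 7.1% to 8.79% in Sham-DMI, 6 of 8 neutrophil and marrow markers were called lower (summed level 10.7 to 40.2 and 3.85 to 18.6 CPM), endothelial markers were lower in 6 of 6 with 2 called (88.3 to 125 and 69.8 to 88.5 CPM), and 5 of 10 sensory neuron markers were called higher and 1 lower. Injured neuron markers were called higher in 5 of 7 (summed level 276 to 306 and 333 to 374 CPM, with Sprr1a at 2.46, Npy at 2.23 and Ecel1 at 1.24 log2), and of 8 spinal cord markers tested 8 were lower with 4 called (295 to 326 and 245 to 300 CPM over all 12). Their part in the result was not tested.

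Under DMI, injured mice had higher mean levels than sham mice for 9 of the 10 members (SNI-DMI versus Sham-DMI), Arc being the exception. None passed the adjusted threshold in edgeR or DESeq2, where edgeR called 0.402% of all genes. Unadjusted p was under 0.05 for 3 members in each tool, namely Fos, Egr1 and Nr4a1. By the rule for DEGs 2 of 10 were called, against 5.41% of all genes, and 2 of 10 had groups without overlap (Fos and Npas4), against 5.03%. For Npas4 the log2 fold change was 0.43, with an interval of -0.25 to 1.12. Fos was at 3.08 ± 0.234 CPM in Sham-DMI and 4.05 ± 0.79 CPM in SNI-DMI (log2 fold change 0.40 ± 0.172 (SE), adjusted p = 0.369). Egr1 was at 9.88 ± 1.67 and 12.4 ± 2.3 CPM (0.33 ± 0.155 (SE), adjusted p = 0.406), Egr3 at 3.84 ± 1.25 and 5.43 ± 0.883 CPM (0.50, interval -0.10 to 1.10) and Nr4a1 at 30.7 ± 3.35 and 35.7 ± 3.25 CPM (0.22, interval 0.01 to 0.43). The median log2 fold change of the members was 0.19, and that of all genes 0.001.

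The number of higher members was 8 of 10 with GC content and length trends removed or without SNI-DMI replicate 4, 7 without Sham-DMI replicate 4 and 10 without SNI-DMI replicate 2, the library with the muscle markers. The 2 calls by the rule for DEGs fell to 0 with GC content and length trends removed, and when any of Sham-DMI replicate 1, Sham-DMI replicate 2 and SNI-DMI replicate 4 was left out. They fell to 1 without Sham-DMI replicate 3, SNI-DMI replicate 1 or SNI-DMI replicate 3. Endothelial markers were higher in 6 of 6 and macrophage markers in 7 of 7, with 0 called by adjusted p in either list. The rule for DEGs called 6 macrophage markers, against 5.41% of all genes. The part of these markers in the result was not tested.

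**Figure D2:**
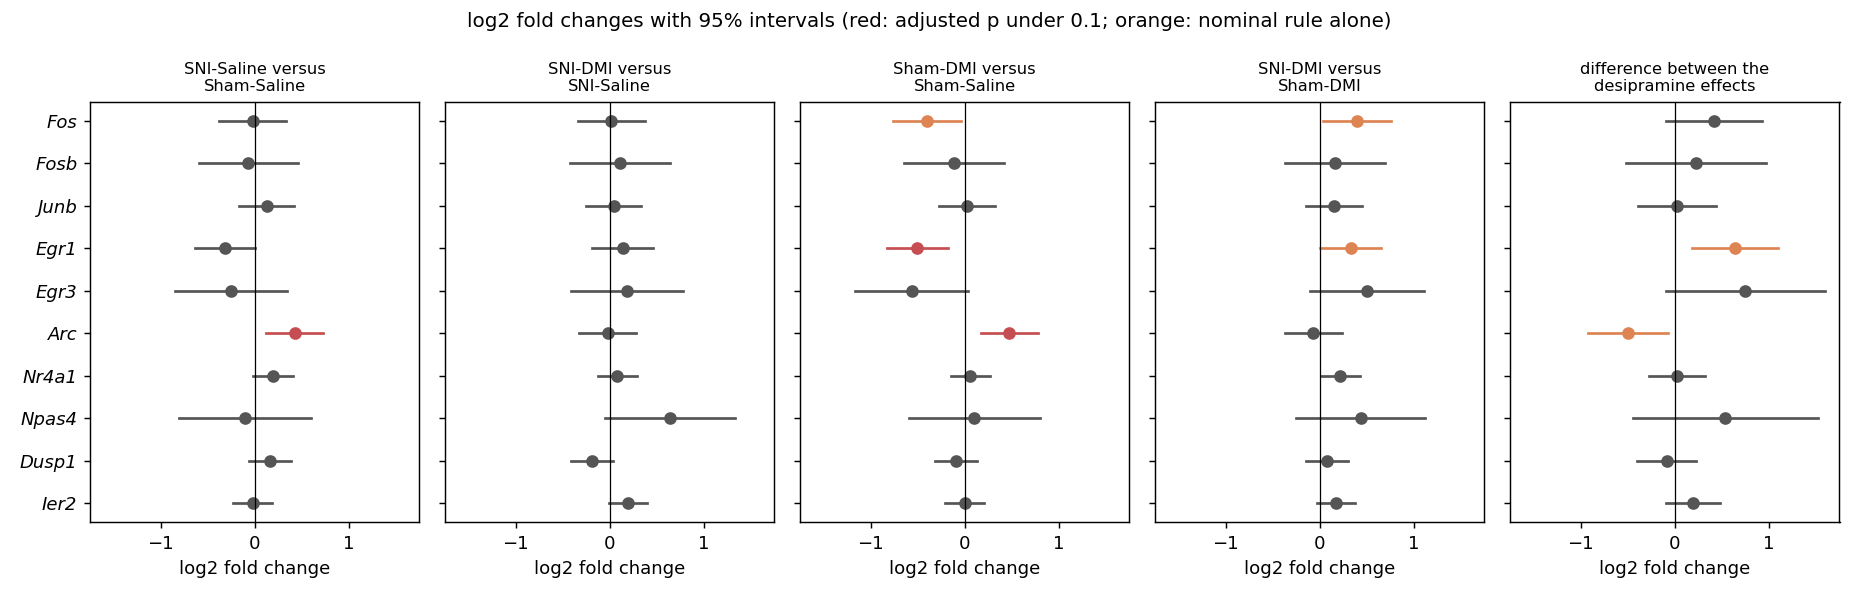
Difference of each gene in the 5 comparisons (horizontal axis, log2 fold change, point) with its 95% interval (line). Red points passed an adjusted p of 0.1 (Arc after injury, Egr1 and Arc with DMI in sham mice), orange points passed only the rule for DEGs, and most intervals include 0.

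The response to DMI in injured mice was then set against that in sham mice as a difference between both effects. For Egr1 that difference was 0.64 ± 0.218 (SE, log2, interval 0.19 to 1.10), and for Arc -0.50 ± 0.204 (SE, log2, interval -0.92 to -0.07). Neither passed adjustment over all genes (adjusted p = 0.619 for both). Of the members 0 passed the adjusted threshold in edgeR or DESeq2, and over all genes edgeR called 0, which is 0%, and DESeq2 16, with 1692 genes at an unadjusted p under 0.05 in edgeR. By the rule for DEGs 2 of 10 members were called, against 3.45% of all genes. For Egr1, DMI went with -0.51 in sham mice and 0.14 in injured mice, and for Arc with 0.47 and -0.02. Fos (0.42, interval -0.09 to 0.93) and Egr3 (0.75, interval -0.10 to 1.60) had differences of the same sign as Egr1, while Junb and Nr4a1 had 0.02 each, with intervals of -0.39 to 0.44 and -0.28 to 0.32.

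Between mice of the same group some members varied together and others did not. After each library's log2 CPM was set against its group mean, the 45 pairs of members had correlations over the 16 libraries from -0.46 to 0.77, with a median of 0.22, where all pairs of 15750 genes had a median of -0.001 and quartiles of -0.26 and 0.26. The strongest was Egr3 with Arc (r = 0.77, 0.77 without the 2 libraries farthest from the median), followed by Junb with Ier2 (0.76) and Junb with Dusp1 (0.73). Fos went with Arc (0.67), Egr1 (0.59) and Nr4a1 (0.54), and Npas4 with Ier2 (0.57). Between these neighbourhoods most values were low or negative, as for Egr3 with Npas4 (-0.46), Egr3 with Junb (-0.40) and Egr1 with Dusp1 (-0.14). Without the 2 farthest libraries these 3 were -0.31, -0.20 and -0.20. Other pairs changed sign, with Egr3 and Ier2 going from -0.26 to 0.17 and Arc and Npas4 from -0.21 to 0.38. The separation of the neighbourhoods was therefore not firm. Fosb went with both Arc (0.61, or 0.38 without the 2 farthest libraries) and Ier2 (0.55). These are descriptions of 16 libraries that share their groups' means and a common scaling.

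From mouse to mouse Arc varied with Fos (0.67, or 0.62 without the 2 farthest libraries) and less firmly with Egr1 (0.51, or 0.34, with a Spearman rho of 0.22), while its group mean moved opposite to theirs in Sham-DMI. The share of reads in no annotated feature went down within groups as Junb (-0.63), Ier2 (-0.58), Npas4 (-0.57) and Dusp1 (-0.54) went up, and rose with Egr3 (0.59). For Egr1 and Fosb the values were 0.01 and 0.09. The part of RNA or library quality in these correlations was not tested.

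**Figure D3:**
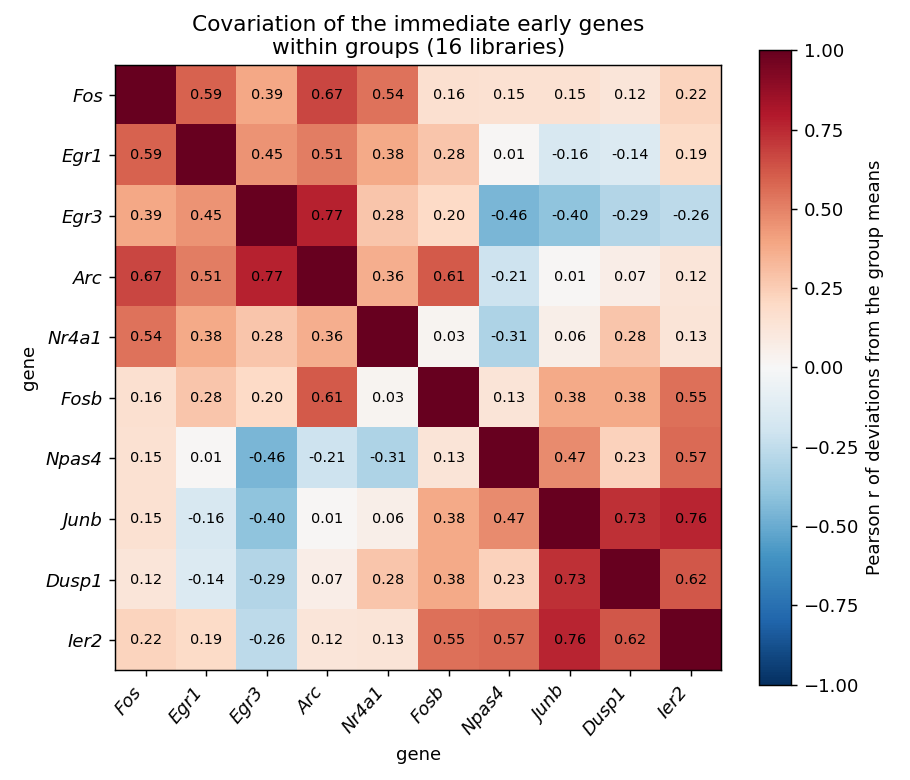
Pearson correlation of each pair of immediate early genes (both axes) over 16 libraries after subtraction of the group means, with red for positive and blue for negative values. Fos, Egr1, Egr3 and Arc form a block with values of 0.39 to 0.77, and Junb, Dusp1 and Ier2 a block with 0.62 to 0.76.

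Averaged over the members in units of each gene's own SD, SNI-DMI replicate 2 was lowest against its group (-0.83), followed by Sham-Saline replicate 4 (-0.70), and SNI-DMI replicate 4 (0.71), SNI-Saline replicate 2 (0.68) and Sham-Saline replicate 2 (0.61) were highest. SNI-DMI replicate 2 was the lowest of its group for Fos, Fosb, Egr1, Egr3, Arc and Npas4. It was not the lowest for Junb, Nr4a1, Dusp1 or Ier2, of which SNI-DMI replicate 3 was. Each group had mice on both sides of its mean.

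**Figure D4:**
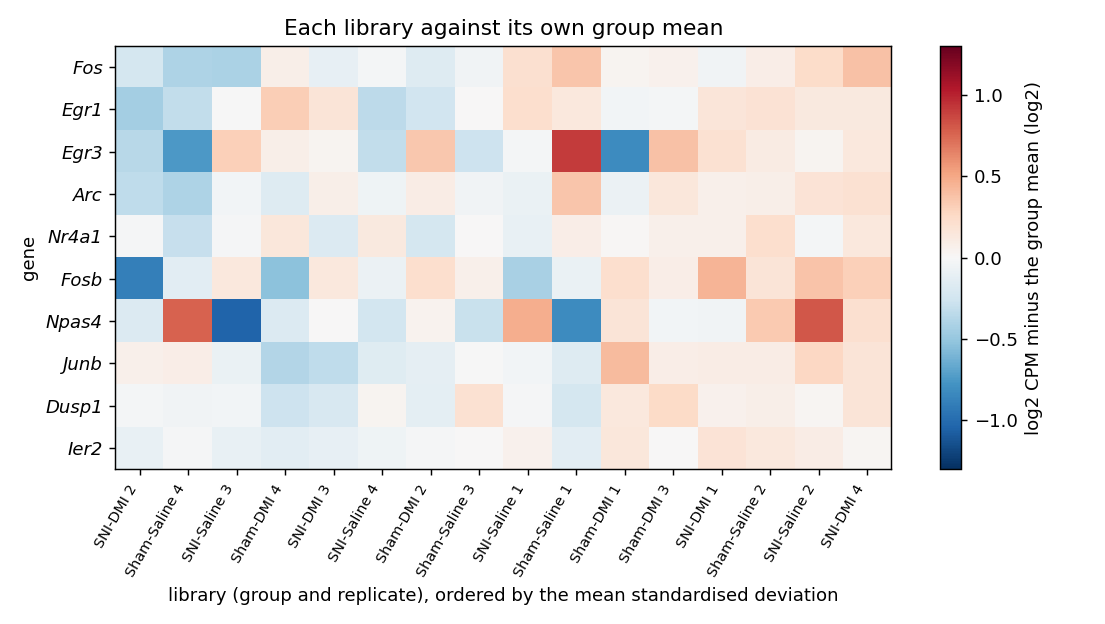
Difference of each gene's log2 CPM from its group mean (colour, log2) in the 16 libraries, ordered from left to right by the mean standardised deviation of the members. The order runs from SNI-DMI replicate 2 (-0.83) to SNI-DMI replicate 4 (0.71), and Egr3, Fosb and Npas4 carry the strongest colours.

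Among 15742 other genes with at least 1 CPM, those that followed this average most closely were Gng8 (r = 0.89), Sfrp5 (0.87), Sec14l2, Bend7 and Gm49342 (0.86 each), Itga7 and Prkab1 (0.84 each), Gm48768 (0.83), Pdlim7 (0.82) and Gm20559 (0.81). Without the 2 libraries farthest from the median of the average the values were 0.77 to 0.85, and the 99th percentile of all these genes was 0.64. The named genes were picked as the highest of 15742 values over only 16 libraries, and the trimmed values are of the same picked genes. How high such a search would reach among unrelated genes was not tested, so no link to the members can be read from the list. Gng8 encodes a G-protein gamma subunit, Itga7 a laminin-binding integrin subunit and Prkab1 a subunit of the energy sensor AMPK. None is a classical immediate early gene.

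Among 19 other immediate early transcription factors 3 were called after injury, where 12.0% of all genes were called, and all 3 were higher: Atf3 (log2 fold change 2.32 ± 0.22 (SE)), Csrnp1 (0.41 ± 0.11 (SE)) and Jun, the main AP-1 partner of Fos and a factor of axon injury (0.36 ± 0.08 (SE), from 93.1 ± 4.12 to 120 ± 7.64 CPM). With DMI in injured mice 1 of 19 was called, the circadian repressor Nfil3, where 2.93% of all genes were called. Nfil3 was higher (0.44 ± 0.12 (SE), adjusted p = 0.0906). In sham mice 5 of 19 were called, where 23.4% of all genes were. Atf3 was higher, and lower were Klf6 (-0.23, adjusted p = 0.0123), the clock gene Per1 (-0.30, adjusted p = 0.0311), Nr4a2 (-0.39, adjusted p = 0.053) and Nr4a3 (-0.79, adjusted p = 0.0987), the last 2 being paralogues of Nr4a1. Between SNI-DMI and Sham-DMI all 19 had a positive log2 fold change with a median of 0.29. Of these edgeR called only Atf3 (1.70 ± 0.22 (SE), adjusted p = 0.00211), where 0.402% of all genes were called. The number called was 6 in DESeq2, 3 with no filter on low counts, 4 without Sham-DMI replicate 1 or SNI-DMI replicate 3 and 2 without Sham-DMI replicate 2 or SNI-DMI replicate 2. For that comparison 18 were positive with median-ratio size factors and in DESeq2 and 15 with GC content and length trends removed, and 15 to 19 when 1 library was left out. The shear-responsive factor Klf2 was at 0.55 (adjusted p = 0.243), Csrnp1 at 0.49 (adjusted p = 0.103) and Egr4 at 1.21 (adjusted p = 0.303).

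Of 18 feedback and primary-response regulators 4 were called higher after injury, where 12.0% of all genes were called, namely Gadd45g (0.56 ± 0.10 (SE)), Gadd45b (0.38), Socs3, a brake on cytokine signalling (0.35), and Ier3 (0.21). With DMI in sham mice 3 of 18 were called, below the 23.4% of all genes, and all were higher, Ier3 (0.39), Gadd45g (0.37) and the MAP kinase phosphatase Dusp5 (0.28, from 30.5 ± 2.53 to 36.9 ± 2.72 CPM), a relative of Dusp1. With DMI in injured mice 0 were called by edgeR, against 2.93% of all genes, and 3 by DESeq2, against 11.63%. Under DMI 1 was called higher in injured mice, Ier5 (0.51, adjusted p = 0.0715), where 0.402% of all genes were called. Of 13 neuronal effectors downstream of activity 6 had a positive log2 fold change after injury, with a median of -0.04, and Rasgrp1 (-0.50 ± 0.11 (SE)), the synaptic scaffold gene Homer1 (-0.35 ± 0.07 (SE), from 23.2 ± 0.424 to 18.2 ± 1.42 CPM) and the prohormone convertase gene Pcsk1 (-0.19) were called lower and 0 higher, or 1 lower with GC content and length trends removed. With DMI in sham mice Homer1 (-0.43), Inhba (-0.69) and Pcsk1 (-0.18) were lower and Nrn1 (0.15) and Plk3 (0.20) higher, which became 0 lower and 3 higher with those trends removed, and in injured mice Plk3 alone was called (0.28, adjusted p = 0.0752).

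Of 17 transcriptional regulators upstream of the family 5 were called lower after injury and 0 higher, where 12.0% of all genes were called, namely the coactivator gene Crebbp (-0.37, adjusted p = 0.0137), Mef2c (-0.31), Mef2a (-0.27), Ep300 (-0.26) and Mrtfb (-0.17). With DMI in sham mice, against the same control mice, 4 of 17 were called lower, where 23.4% of all genes were called, namely Mef2c and Mef2a (-0.31 each), Ep300 (-0.25) and Mrtfb (-0.23). With GC content and length trends removed the calls were 1 lower and 1 higher after injury and 1 lower with DMI in sham mice. Crebbp alone was called with DMI in injured mice, where 2.93% of all genes were called. Crebbp was higher there (0.28, from 36.9 ± 4.95 to 45.0 ± 1.77 CPM, adjusted p = 0.08). The difference between the DMI effects was positive for 17 of 17, with a median of 0.15 against 0.01 for all genes, but 0 passed the adjusted threshold in edgeR or DESeq2, and with GC content and length trends removed it was positive for 15 with a median of 0.04. Of 18 kinases and phosphatases 4 were called lower and 1 higher after injury, with Camk4 at -0.30 and Rps6ka1 at 0.30, and 7 lower and 1 higher with DMI in sham mice, where Camk4 was at -0.38 and the calcineurin subunit gene Ppp3cb at -0.27. With GC content and length trends removed 1 was lower and 1 higher after injury. With DMI in sham mice the direction of the list turned under that setting, from a median of -0.09 to 0.05, with 1 called lower and 2 higher, and with no filter on low counts 4 were lower and 0 higher. In injured mice DMI went with lower Rps6ka3 (-0.30) and Mapk8 (-0.24). Of 11 heat-shock genes, often induced beside immediate early genes when tissue is handled, 0 were called after injury by edgeR and 3 by DESeq2, which called 21.22% of all genes. With DMI in sham mice 4 of 11 were called, where 23.4% of all genes were, and all 4 were higher (Hspa8 0.24, Hspb1 0.28, Hspe1 0.18 and Dnajb1 0.13). Hspb1 was also higher with DMI in injured mice (0.33, adjusted p = 0.063). In SNI-DMI versus SNI-Saline all 6 related lists had 0 calls once GC content and length trends were removed, so that the calls of Nfil3, Plk3, Crebbp, Rps6ka3, Mapk8 and Hspb1 were lost. They were also lost when any of SNI-Saline replicates 1 and 3 and SNI-DMI replicates 1, 2 and 3 was left out, where 0 of all genes were called. The part of handling or dissection time in any of these results was not tested.

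**Figure D5:**
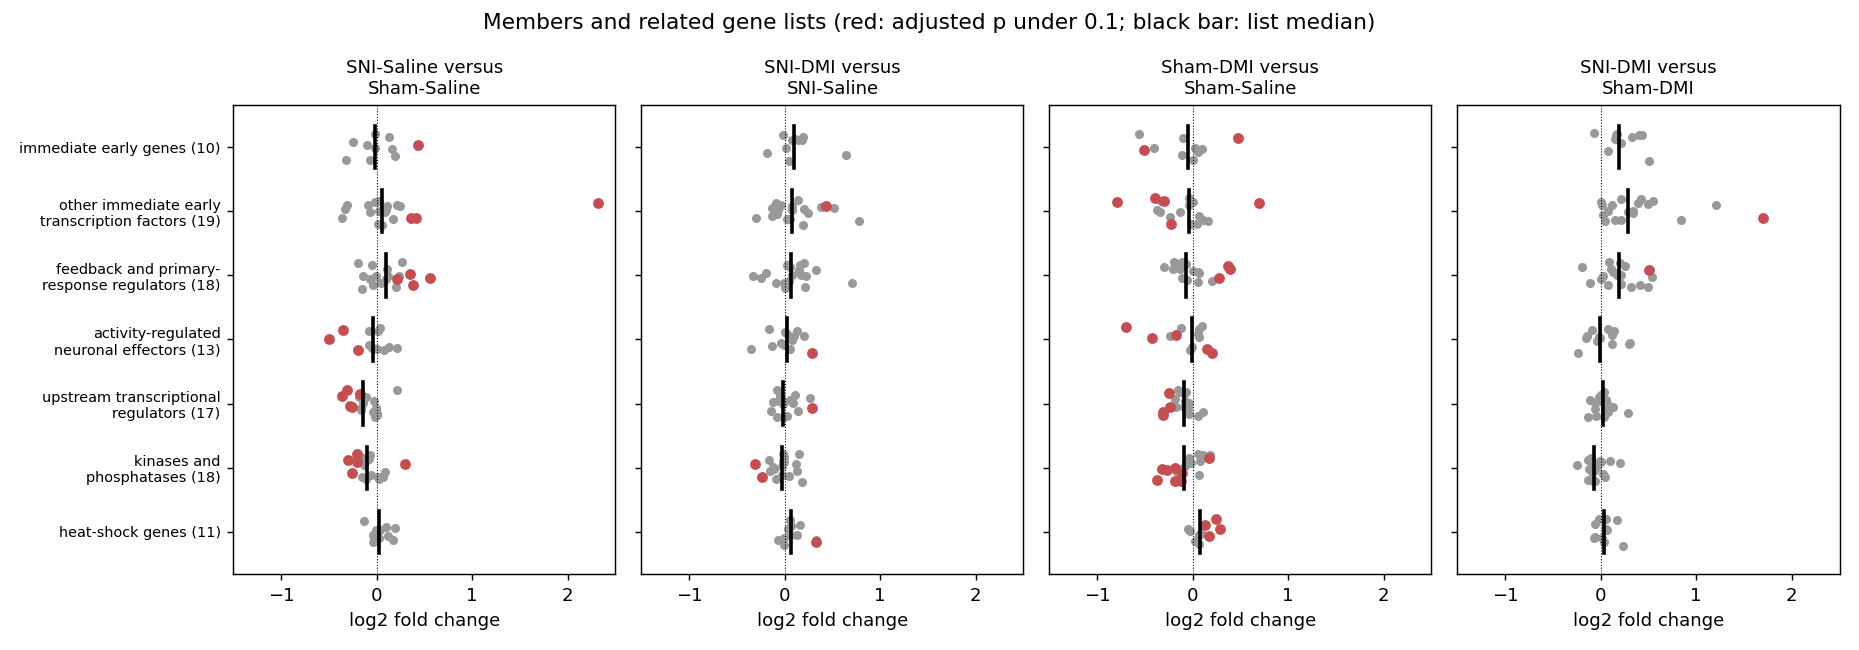
log2 fold changes (horizontal axis) of the 10 members and of 6 related gene lists (rows) in 4 comparisons, each point a gene, red where the adjusted p was under 0.1, with a black bar at the median. After injury Atf3 lies apart at 2.32, and between SNI-DMI and Sham-DMI the median of the other transcription factors is 0.29 and that of the members 0.19.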

How the data were processed

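RNA was taken from the lumbar DRGs of each of the 16 mice, and mRNA libraries made with a stranded kit were sequenced as paired reads on a NovaSeq. The authors mapped reads to mm10 and deposited whole-number counts of reads per Ensembl gene for each library, and the submitters' processing notes name HISAT2, HTSeq and DESeq2. The counter's strand setting and the annotation release were not given in the sources used here. The 5 closing lines of each table, which name no gene, were left out (18.8% to 20.4% of its total).

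Genes with enough counts were kept (filterByExpr, 21371 genes), libraries were scaled by TMM, and edgeR's quasi-likelihood test (edgeR 4.0.16, R 4.3.3) was fitted to all 16 libraries with 1 coefficient per group and no covariate, with Benjamini-Hochberg adjustment over all genes tested. A gene was called at an adjusted p under 0.1, and a second rule took a nominal p under 0.05 with a log2 fold change of 0.32 or more in either direction, the cut-offs of the study for DEGs. CPM values are counts scaled to a common library total after TMM, and levels per kilobase used exon lengths of GENCODE annotation on GRCm38, which held 52403 of the 52636 genes. Deviations from group means were taken on the log2 scale (prior count 2). Each group held 4 separate mice. Libraries of a group differed from each other well beyond counting noise (chi-square per gene of at least 10.38). Depth and the counting floor of 3 counts cover counting error only. In simulated counts for SNI-Saline versus Sham-Saline over 21371 genes, 80.6% of 2-fold and 98.0% of 4-fold changes were called. The changed genes were drawn at random and given the spread typical of their level. These shares therefore do not describe the members' own spread or changes under 2-fold.

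The 10 genes and the related lists were chosen with earlier results of these data known. All members were named, members of related lists were named when called (at most 5 per list and comparison, by smallest p), with values also given for a few others, chosen after their values were seen, and the genes most like the members were the 10 with the highest correlation with their average. Alternatives were median-ratio size factors, no filter on low counts, DESeq2 1.42.0, removal of GC content and length trends (values for 21324 genes), a replicate block and leaving out each library. Counts of the related lists under these alternatives were added after seeing the data. RefSeq promoter windows were searched on both strands for TGACG or CGTCA, for TGACGTCA, which holds both, and for the CArG box.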

Additional observations from a re-analysis of the deposited data

Results flagged for a closer look

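In 40 sets of 4 libraries (10 genes in 4 groups), 2 values stood apart by Dixon's test, which chance alone would do in about 1 set in 20. Fos in Sham-DMI replicate 2 was lowest at 2.73 CPM, and its gap to the nearest mouse was 0.86 of the group's range, in a group spanning only 2.73 to 3.23 CPM. The spread of that group (7.6% of the mean) was about as large as counting error (7.5%). Egr1 in SNI-DMI replicate 2 was lowest at 8.96 CPM, with a gap of 0.916 of the range, in the library whose skeletal muscle markers summed to 268 CPM. The part of muscle RNA in that value was not tested.

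The effect of DMI differed between injured and sham mice for Egr1 by 0.64 (log2, adjusted p = 0.619 in edgeR) and for Arc by -0.50 (log2, adjusted p = 0.619 in edgeR), among 10 such differences tested. Both had an unadjusted p under 0.05 and neither passed adjustment over all genes. The difference for Arc ran from -0.63 to -0.38 when 1 library was left out, and its unadjusted p was above 0.05 in 4 of 16 such fits (without Sham-Saline replicate 4, SNI-Saline replicate 2, Sham-DMI replicate 3 or SNI-DMI replicate 2), and that for Egr1 ran from 0.54 to 0.77 when any 1 library was left out.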

How the results depend on the processing

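Of 250 values under the 5 alternatives other than leaving out a library, 238 kept their direction and side of the threshold. With 1 library left out it was 425 of 480. The number of members called after injury by adjusted p was 0 with GC content and length trends removed and 0 with the replicate block, and 0 to 1 without 1 library. By the rule for DEGs the number after injury was 2 with GC content and length trends removed and 1 to 2 without 1 library. For SNI-DMI versus SNI-Saline it was 1 with no filter on low counts and 0 to 1 without 1 library. For SNI-DMI versus Sham-DMI it was 1 with median-ratio size factors, 0 with GC content and length trends removed, 1 with the replicate block and 0 to 2 without 1 library. For the difference between the DMI effects it was 1 to 3 without 1 library. With no filter on low counts it rose to 4 from 3 in Sham-DMI versus Sham-Saline, to 3 from 2 in SNI-DMI versus Sham-DMI and to 3 from 2 in the difference. In these alternatives the cause was not tested.

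With GC content and length trends removed the sign turned for Fos (-0.022) and Junb (-0.062) in SNI-DMI versus SNI-Saline, Junb (-0.02) and Ier2 (-0.077) in Sham-DMI versus Sham-Saline, Dusp1 (-0.013) in SNI-DMI versus Sham-DMI, and Junb (-0.042) and Nr4a1 (-0.02) in the difference. Replicate numbers did not pair the mice (correlations of same-numbered libraries -0.081 to 0.184, own number best in 4 of 16). With the replicate block the sign turned for Ier2 (-0.002) in Sham-DMI versus Sham-Saline, and the 626 calls over all genes for DMI in injured mice became 172.

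Leaving out 1 library turned the sign of small differences, none of which was called. After injury the ranges were -0.13 to 0.12 for Fos, -0.19 to 0.067 for Fosb, -0.45 to 0.15 for Egr3, -0.40 to 0.20 for Npas4 and -0.053 to 0.03 for Ier2. In SNI-DMI versus SNI-Saline they were -0.13 to 0.11 for Fos, -0.019 to 0.33 for Fosb, -0.013 to 0.16 for Junb and -0.09 to 0.075 for Arc. In Sham-DMI versus Sham-Saline they were -0.17 to 0.057 for Fosb, -0.12 to 0.16 for Junb, -0.032 to 0.15 for Nr4a1, -0.087 to 0.40 for Npas4, -0.17 to 0.004 for Dusp1 and -0.033 to 0.064 for Ier2. In SNI-DMI versus Sham-DMI they were -0.012 to 0.38 for Fosb, -0.15 to 0.032 for Arc and -0.021 to 0.17 for Dusp1, and in the difference -0.11 to 0.16 for Junb and -0.058 to 0.11 for Nr4a1.

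Over all genes, calls after injury were 2571 and became 999 with GC content and length trends removed. For SNI-DMI versus SNI-Saline the 626 calls became 47 with those trends removed and 1859 in DESeq2. They became 0 when any of SNI-Saline replicates 1 and 3 and SNI-DMI replicates 1, 2 and 3 was left out. Without SNI-Saline replicate 4 they were 38, without SNI-Saline replicate 2 984 and without SNI-DMI replicate 4 630. For SNI-DMI versus Sham-DMI the 86 calls became 239 with those trends removed, 310 with no filter and 502 in DESeq2, and 17 to 850 when 1 library was left out. For the difference 0 became 16 in DESeq2. Npas4 and Fosb had 17 to 79 reads per library, and counting error was 12.5% to 16.3% of their group means.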
